A study of Bos taurus with 12 samples.

Results

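Interferon-stimulated genes were followed in right ventricles, which drive blood through the lungs, from 12 Angus steers living at high altitude. The group is a list of 35 genes, taken by symbol with no cut on a measured value. The list, like the further lists below, was chosen with earlier results of these data known. Of the 35, 32 have a row under that symbol among the 24616 genes of the table, and 30 passed the filter on low values that left 11374 genes for testing. IRF7 and OAS2 have a row but stayed below the filter, and IRF9, DHX58 and BST2 have no row under those symbols.

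All 12 animals were wild-type males, castrated at 6 to 8 months, kept in chronic environmental hypoxia at 2170 m (7120 ft) and slaughtered at 13 to 15 months of age. By catheter measurements of pulmonary arterial pressure (PAP) and clinical signs they had been classed as low PAP (6 animals, called hypoxia-tolerant), hypertensive but healthy (PH-healthy, 3 animals), or hypertensive and in right heart failure (PH-failure, again 3). No animal gave more than 1 library, and no group lived at low altitude, so low PAP is a comparison group under the same hypoxia. The libraries held 14739237 to 31090198 mapped reads, of which 85.6 to 88.2% lay in exons.

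Interferons are secreted proteins that bind receptors on the cell surface and, through JAK kinases, activate transcription factors of the STAT family, among them STAT2. Together with IRF9 these switch on a broad set of genes whose products sense viral RNA, block translation, edit or destroy RNA and display peptides to T cells. The same genes can be switched on in cells without infection, among them the muscle, vessel and immune cells of the heart. In whole tissue, more cells of a type that makes an RNA and more of that RNA per cell cannot be told apart.

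In PH-failure ventricles, 14 of the 30 tested interferon-stimulated genes rose against low PAP and none fell. They ranged from PARP9 at 0.39 ± 0.14 (SE) to MX1 at 1.01 ± 0.28 in log2 fold change. In the same comparison 28% of all tested genes rose and 5.79% fell, against 46.7% of the interferon-stimulated genes that rose. The counts include IFIT2 and MX2, which reached the filter of 1 RPKM in no low-PAP library and so were tested through the animals with pulmonary hypertension. Of the other 28 genes, 13 rose in PH-failure and 5 in PH-healthy. Over all 30 genes, IFIT2 and MX2 included, the median log2 fold change in PH-failure was 0.48, against 0.21 over all tested genes. Of the 30, 29 were above 0, against 70.8% of all tested genes. In PH-healthy ventricles 5 of the 30 rose and none fell, or 16.7%, a share below the 26.6% of all tested genes that rose there, while 8.15% of all fell. The median was 0.36 for the interferon-stimulated genes and 0.18 for all tested genes. Levels are in RPKM, which is reads normalized to exon length and mapped reads. All fold changes refer to log2(RPKM + 1), a scale that understates changes of weakly expressed genes, and a gene rose or fell where limma's Benjamini-Hochberg adjusted p over all 11374 genes was under 0.05.

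Another scaling of the whole table changed these counts. When the distributions of the 12 libraries were made equal by quantile normalization, the median of all tested genes moved from 0.21 to -0.03 in PH-failure and from 0.18 to -0.04 in PH-healthy. Calls over all genes then went from 3190 higher and 658 lower to 1133 higher and 1418 lower in PH-failure, and from 3024 and 927 to 1424 and 1622 in PH-healthy. Of the interferon-stimulated genes, ADAR, EIF2AK2 and IFIT1 were still called higher in PH-failure, and ADAR and EIF2AK2 in PH-healthy, where 9.96% and 12.5% of all tested genes were called higher. The medians of the 30 genes under that scaling were 0.18 and 0.09, above those of all tested genes in both comparisons.

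**Figure D1:**
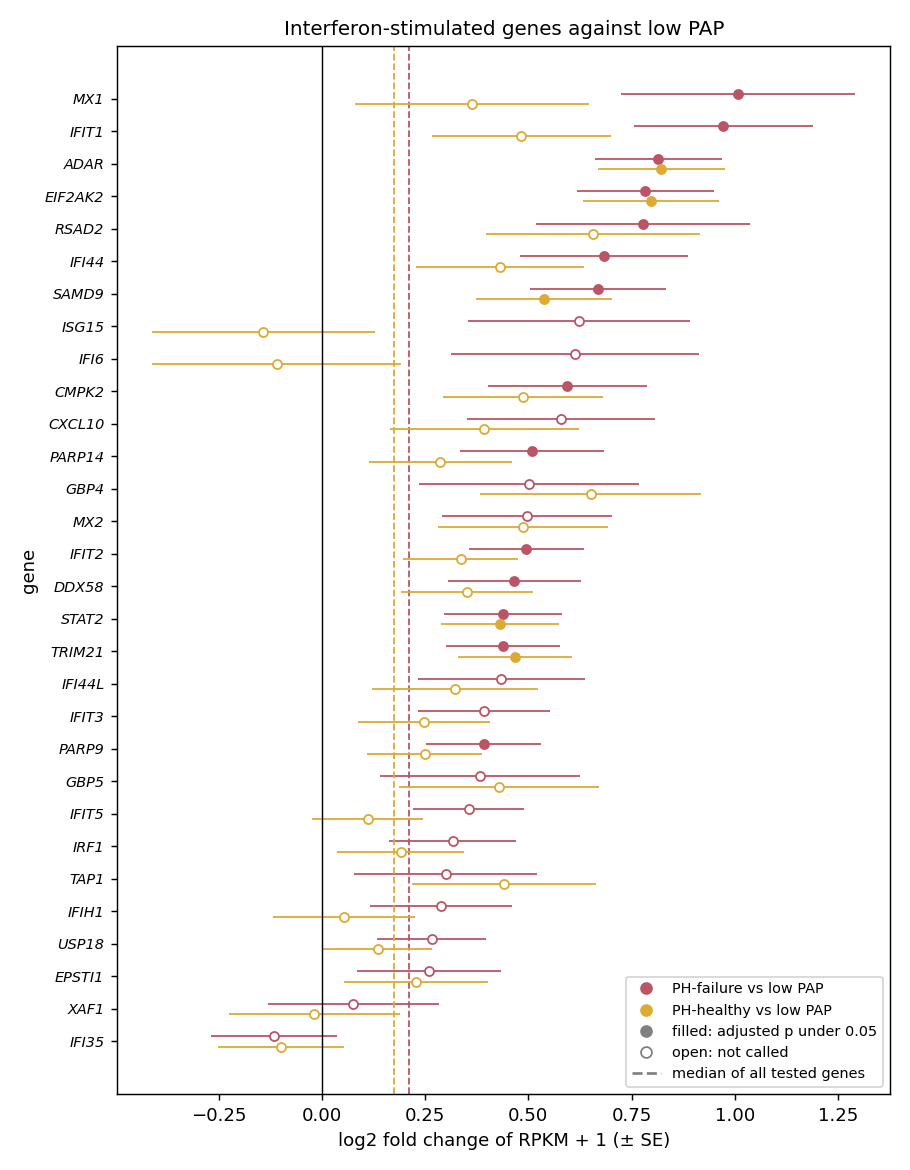
Log2 fold change of RPKM + 1 with its SE for each of the 30 tested interferon-stimulated genes, in PH-failure (red) and PH-healthy (yellow) against low PAP. Filled points are the 14 and 5 genes with an adjusted p under 0.05, and dashed lines are the medians of all tested genes, 0.21 and 0.18. All PH-failure points but IFI35 lie above 0.

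ADAR and EIF2AK2, whose enzymes respectively edit and are activated by double-stranded RNA, rose in both forms of pulmonary hypertension. ADAR (chromosome 3, 16033025 to 16052140; positions are those of the deposited table, whose build its header does not name) encodes the enzyme that changes adenosine to inosine in double-stranded RNA. Its level in low PAP ran from 1.95 RPKM through a median of 2.31 to 3.63. It was 5.35, 6.01 and 4.58 in PH-healthy replicates 1, 2 and 3, and 4.91, 5.27 and 5.60 in the 3 PH-failure replicates. All 6 animals with pulmonary hypertension were above all 6 with low PAP. Such a separation from low PAP was common among all genes. In PH-failure all animals lay above low PAP in 9 of the 30 genes, and in 18.6% of all tested genes. In PH-healthy they did so in 5 of the 30, among them IFIT2, and in 25.0% of all tested genes, a larger share. ADAR rose by 0.82 ± 0.15 in PH-healthy (limma adjusted p = 0.00295) and by 0.81 ± 0.15 in PH-failure (adjusted p = 0.00394).

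EIF2AK2 (chromosome 11, 19578981 to 19621259) encodes PKR, a kinase that is activated by double-stranded RNA and stops translation. Its level in low PAP ran from 1.63 RPKM through 2.05 to 3.26, against 4.23, 4.88 and 4.47 in PH-healthy and 3.17, 4.90 and 5.66 in PH-failure. All PH-healthy animals lay above low PAP, while PH-failure replicate 1 fell just under low-PAP replicate 2, the highest of its group. The gene rose by 0.80 ± 0.17 in PH-healthy (limma adjusted p = 0.00481) and by 0.78 ± 0.17 in PH-failure (adjusted p = 0.00637). Both ADAR and EIF2AK2 kept their calls in both comparisons under all 19 alternative settings. OAS2, which makes a short RNA messenger on sensing double-stranded RNA, stayed under the filter. It reached 0.126 to 0.198 RPKM in low PAP, 0.177 to 0.296 in PH-healthy and 0.346 to 0.561 in PH-failure, from as few as 11 reads in a library, and was not tested.

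Of the transcription factors, STAT2, a part of the complex that type I interferon activates, rose in both forms of pulmonary hypertension. Its level was 2.91 to 4.35 RPKM in low PAP, with a median of 3.84, then 4.93, 5.90 and 5.04 in PH-healthy and 5.41, 6.43 and 4.27 in PH-failure. PH-failure replicate 3 lay within the low-PAP range and the other PH animals above it. The change was 0.43 ± 0.14 in PH-healthy (limma adjusted p = 0.0332) and 0.44 ± 0.14 in PH-failure (adjusted p = 0.0327), and the calls were lost under 9 and 8 of the 19 alternatives. IRF1, a factor that interferon gamma induces, had 5.23 ± 0.836 RPKM (SD, n = 6) in low PAP, 6.14 ± 1.26 (n = 3) in PH-healthy and 6.80 ± 1.54 (n = 3) in PH-failure and did not pass the test. IRF7, which amplifies interferon production, stayed below 1 RPKM in all 12 libraries, at 0.203 to 0.877.

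IRF9, the DNA-binding partner of STAT2, is listed in the table under its older symbol ISGF3G. Under that symbol it had 6.49 ± 0.950 RPKM (SD, n = 6) in low PAP, 8.04 ± 2.30 (n = 3) in PH-healthy and 8.65 ± 1.83 (n = 3) in PH-failure. It did not pass the test in either comparison, with a difference of 0.36 ± 0.17 in PH-failure (limma adjusted p = 0.114). It is not counted among the 32.

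Of the cytoplasmic RNA sensors 1 gene passed, in PH-failure. DDX58, which encodes the sensor RIG-I, had 1.68 to 2.98 RPKM in low PAP, with a median of 2.16. It had 3.11, 4.23 and 2.37 RPKM in PH-healthy and 3.77, 3.74 and 3.07 in PH-failure. All 3 PH-failure animals were above all 6 low-PAP animals, and PH-healthy replicate 3 was within the low-PAP range. The rise in PH-failure was 0.47 ± 0.16 (limma adjusted p = 0.0408) and was lost under 12 of the 19 alternatives. IFIH1, the sensor of long double-stranded RNA, had 2.27 ± 0.492 RPKM in low PAP (SD, n = 6), 2.45 ± 0.972 (n = 3) in PH-healthy and 2.98 ± 0.493 (n = 3) in PH-failure and did not pass (limma adjusted p = 0.829 and 0.199). DHX58, a regulator of the other 2 sensors, appears in the table as LGP2, with 0.798 ± 0.139, 1.15 ± 0.281 and 1.24 ± 0.240 RPKM. Its difference in PH-failure was 0.32 ± 0.12 (limma adjusted p = 0.0511), and in PH-healthy it was 0.25 (adjusted p = 0.106).

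ISG15, the ubiquitin-like protein that is attached to other proteins after interferon, did not pass the test in either comparison with low PAP. Its level was 4.24 to 7.79 RPKM in low PAP, with a median of 6.16. The PH-healthy animals had 3.91, 10.8 and 3.28 RPKM and the PH-failure animals 10.4, 9.96 and 8.71. All PH-failure animals were above low PAP, whereas PH-healthy held the lowest and the highest value of all 12 libraries. The difference was 0.62 ± 0.27 in PH-failure and -0.14 ± 0.27 in PH-healthy (limma adjusted p = 0.0863 and 0.706). Without PH-healthy replicate 2, ISG15 was higher in PH-failure by 0.62 ± 0.17 (limma adjusted p = 0.0194) and lower in PH-healthy by 0.59, a log2 fold change of -0.59 ± 0.19 (adjusted p = 0.0471). USP18, the protease that removes ISG15 from proteins, had 1.42 ± 0.259 RPKM in low PAP (SD, n = 6), 1.68 ± 0.482 (n = 3) in PH-healthy and 1.90 ± 0.181 (n = 3) in PH-failure and did not pass.

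The IFIT genes encode proteins that bind foreign RNA and hinder its translation. The 4 on the list lie side by side on chromosome 26, from the start of IFIT2 at 11069933 to the end of IFIT5 at 11127464, with gaps of 7.42 to 18.5 kb. IFIT1 rose in PH-failure by 0.97 ± 0.22 (limma adjusted p = 0.00800), a call that held under all 19 alternatives. Its level was 0.766 to 1.73 RPKM in low PAP, with a median of 1.46, then 1.79, 4.10 and 1.44 in PH-healthy and 2.72, 3.66 and 4.54 in PH-failure. All PH-failure animals were above low PAP, and of PH-healthy only replicate 2 stood far above it.

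IFIT2 rose in PH-failure by 0.50 ± 0.14 (limma adjusted p = 0.0197). Its level was 0.371 to 0.781 RPKM in low PAP, with a median of 0.485, then 0.781, 1.06 and 0.918 in PH-healthy and 0.638, 1.38 and 1.51 in PH-failure. PH-failure replicate 1 lay within the low-PAP range. The 3 libraries that took the gene past the filter were all from animals with pulmonary hypertension, and the call was lost under 5 of the 19 alternatives. IFIT3 had 1.60 ± 0.427, 2.09 ± 0.640 and 2.38 ± 0.217 RPKM in low PAP, PH-healthy and PH-failure (SD, n = 6, 3 and 3), and did not pass. IFIT5 was the most abundant of the 4 per length, at 16.9 ± 0.499, 18.5 ± 3.15 and 22.2 ± 5.40 RPKM. On the log2 scale it varied least of all 30 genes among the low-PAP animals. It did not pass either, with a difference of 0.36 ± 0.13 in PH-failure (limma adjusted p = 0.0564). The sources used here do not give how reads that match close relatives were counted, which leaves single IFIT, MX, GBP and IFI44 values uncertain.

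MX1 encodes a GTPase that traps viral nucleoproteins and is a standard marker of the response to interferon, in cattle also in blood cells. It showed the largest log2 fold change of the 30 genes in PH-failure, 1.01 ± 0.28 (limma adjusted p = 0.0196). Its level was 2.49 to 7.19 RPKM in low PAP, with a median of 5.09, then 5.03, 11.3 and 4.69 in PH-healthy and 12.4, 11.5 and 8.61 in PH-failure. The call was lost under 3 of the 19 alternatives. All PH-failure animals were above low PAP, and PH-healthy replicates 1 and 3 lay in the middle of the low-PAP range. MX2, 21.0 kb away on chromosome 1, was weakly expressed, at 0.170 to 0.577 RPKM in low PAP, 0.309 to 1.83 in PH-healthy and 0.572 to 1.36 in PH-failure. It passed the filter through 3 libraries and not the test.

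The guanylate-binding GTPases, which act against microbes inside cells, did not pass in either comparison. GBP4 had 2.43 ± 0.770 RPKM in low PAP (SD, n = 6), 4.34 ± 1.03 (n = 3) in PH-healthy and 4.14 ± 2.55 (n = 3) in PH-failure. The PH-failure animals were far apart, at 3.30, 7.01 and 2.12 RPKM, and on the log2 scale theirs was the widest spread of any of the 30 genes in that group. GBP5 had 2.13 ± 0.865, 3.23 ± 1.31 and 3.01 ± 0.769 RPKM.

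RSAD2 and CMPK2 are neighbours 12.4 kb apart on chromosome 11. RSAD2 encodes viperin, which makes a chain-terminating nucleotide that halts viral polymerases, and CMPK2 a mitochondrial nucleotide kinase. RSAD2 had 2.02 to 5.97 RPKM in low PAP, with a median of 4.26, then 6.14, 8.93 and 5.03 in PH-healthy and 6.89, 9.83 and 5.44 in PH-failure. In each PH group replicate 3 lay within the low-PAP range and the other animals above it. It rose in PH-failure by 0.78 ± 0.26 (limma adjusted p = 0.0366), a call lost under 9 of the 19 alternatives. CMPK2 had 2.38 to 5.18 RPKM in low PAP, with a median of 3.22, then 4.92, 4.98 and 5.29 in PH-healthy and 4.12, 6.39 and 6.36 in PH-failure. Low-PAP replicate 6, at 5.18 RPKM, overlapped both PH groups. The rise in PH-failure was 0.59 ± 0.19 (limma adjusted p = 0.0329), and 8 alternatives lost it. In PH-healthy the differences were 0.66 for RSAD2 and 0.49 for CMPK2, with limma adjusted p of 0.0650 and 0.0651.

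Of the 7 tested genes for membrane, mitochondrial and cytoplasmic effectors, SAMD9 and IFI44 rose in PH-failure. That is 28.6% of the 7, near the 28% of all tested genes that rose. Under quantile normalization 0 of the 7 were called. SAMD9, a cytoplasmic factor that restricts poxviruses, had 1.25 to 2.04 RPKM in low PAP, with a median of 1.51, then 2.58, 3.64 and 2.04 in PH-healthy and 2.32, 4.06 and 2.94 in PH-failure. All PH-failure animals lay above low PAP, and PH-healthy replicate 3 reached its upper end. The gene rose by 0.54 ± 0.16 in PH-healthy (limma adjusted p = 0.0252) and by 0.67 ± 0.16 in PH-failure (adjusted p = 0.0116), and the calls were lost under 5 and 2 alternatives.

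IFI44, a cytoplasmic protein known chiefly for its induction by interferon, had 1.82 to 3.49 RPKM in low PAP, with a median of 2.39. It had 2.64, 5.88 and 3.08 RPKM in PH-healthy and 3.96, 5.51 and 4.34 in PH-failure. PH-failure lay wholly above low PAP, and in PH-healthy only replicate 2 did. The rise in PH-failure was 0.68 ± 0.20 (limma adjusted p = 0.0241) and was lost under 5 alternatives. Its neighbour IFI44L, 9.66 kb away on chromosome 3, had 2.97 ± 0.831, 4.00 ± 1.41 and 4.35 ± 1.15 RPKM in low PAP, PH-healthy and PH-failure (SD, n = 6, 3 and 3) and did not pass.

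The remaining 4 effectors did not pass. IFI6, a small membrane protein that counters apoptosis, had 12.4 ± 4.84, 11.1 ± 3.62 and 18.7 ± 4.60 RPKM in low PAP, PH-healthy and PH-failure, with the widest spread of the 30 genes among low-PAP animals on the log2 scale. EPSTI1 had 5.59 ± 0.853, 6.86 ± 2.24 and 6.90 ± 1.23 RPKM. XAF1, a protein that promotes apoptosis, had 3.53 ± 0.894, 3.58 ± 1.64 and 3.75 ± 0.772 RPKM. IFI35, a partner of the STAT-interacting protein NMI, had 14.8 ± 2.56, 13.6 ± 0.874 and 13.6 ± 3.02 RPKM, and its difference in PH-failure of -0.12 was the sole negative one.

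All 3 PARP and TRIM genes rose in PH-failure, where 28% of all tested genes rose. Under quantile normalization 0 of the 3 were called. TRIM21, an intracellular antibody receptor and ubiquitin ligase, had 1.42 to 2.63 RPKM in low PAP, with a median of 2.06, then 2.93, 3.12 and 3.26 in PH-healthy and 2.38, 3.40 and 3.37 in PH-failure. PH-healthy lay wholly above low PAP, and PH-failure replicate 1 did not. TRIM21 rose by 0.47 ± 0.14 in PH-healthy (limma adjusted p = 0.0220) and by 0.44 ± 0.14 in PH-failure (adjusted p = 0.0303), and the calls were lost under 6 and 7 alternatives.

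PARP14 and PARP9 are neighbours 24.0 kb apart on chromosome 1 and belong to the family that attaches ADP-ribose to proteins. PARP14 had 1.94 to 3.42 RPKM in low PAP, with a median of 2.54, then 2.94, 4.90 and 2.53 in PH-healthy and 3.56, 4.62 and 4.08 in PH-failure. PARP9 had 2.57 to 4.64 RPKM in low PAP, with a median of 3.21, then 3.92, 4.97 and 3.64 in PH-healthy and 4.42, 5.03 and 4.61 in PH-failure. For PARP14 all PH-failure animals were above low PAP, whereas for PARP9 low-PAP replicate 1 overlapped them. The rises in PH-failure were 0.51 ± 0.17 for PARP14 (limma adjusted p = 0.0396) and 0.39 ± 0.14 for PARP9 (adjusted p = 0.0456), and were lost under 11 and 15 of the 19 alternatives.

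TAP1, a subunit of the transporter that feeds peptides to MHC class I, had 4.94 ± 1.19, 7.03 ± 1.70 and 6.43 ± 2.28 RPKM in low PAP, PH-healthy and PH-failure (SD, n = 6, 3 and 3), and did not pass. CXCL10, a chemokine that draws activated T cells, had 0.376 to 1.11, 0.786 to 1.66 and 0.732 to 2.77 RPKM. It passed the filter through 4 libraries and not the test.

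**Figure D2:**
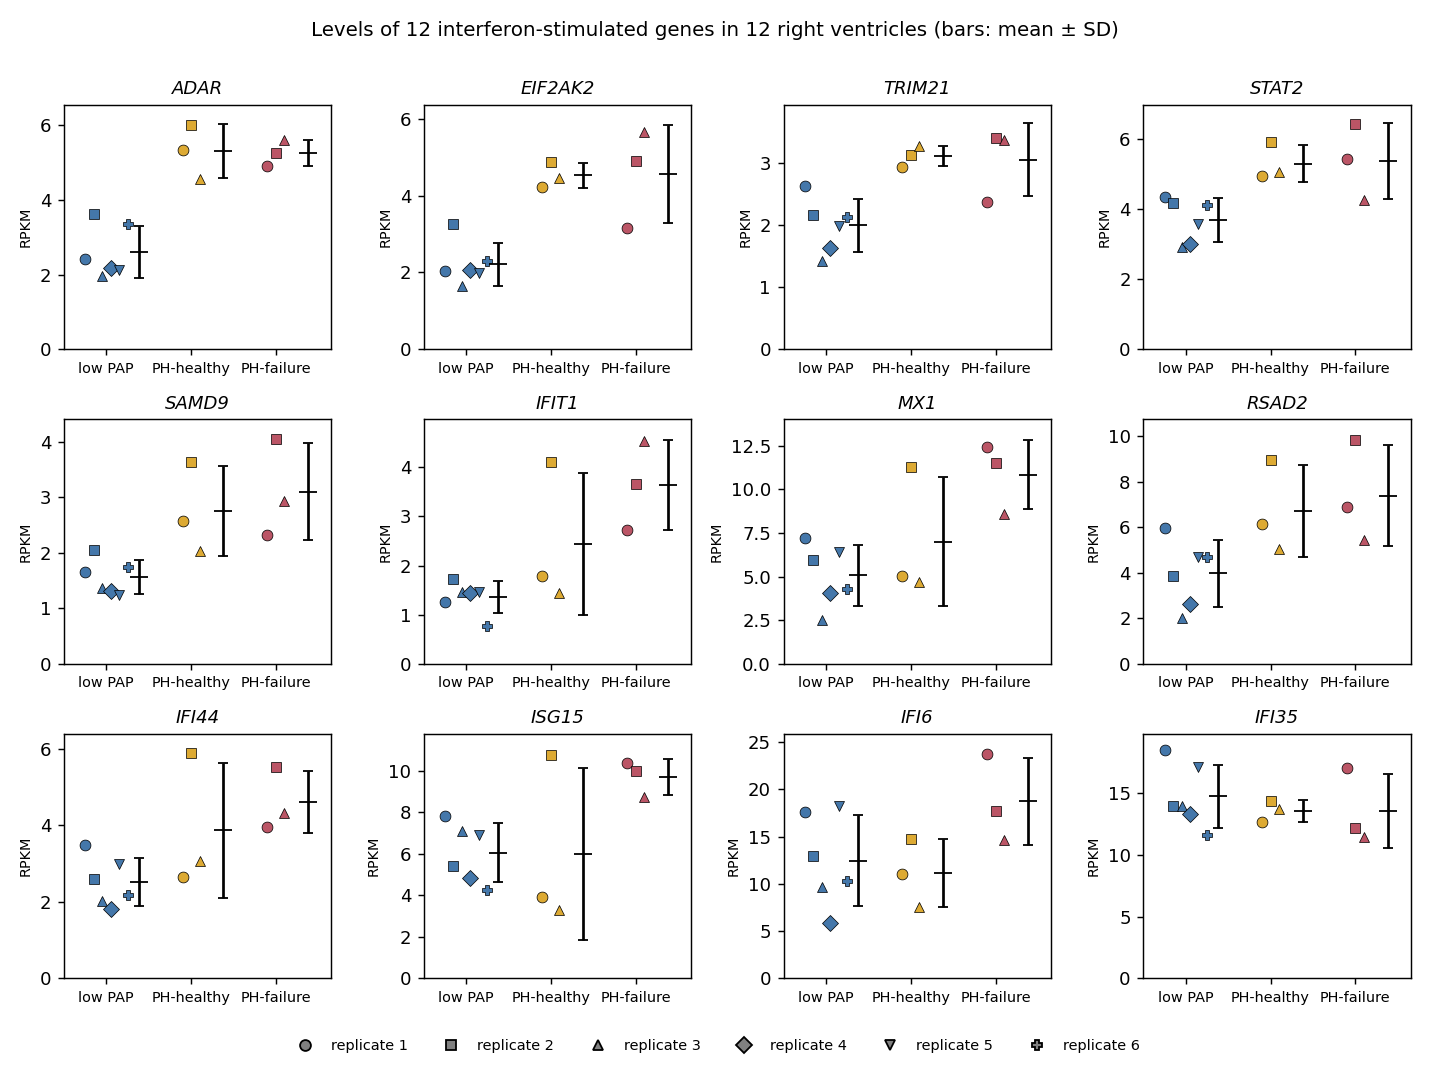
RPKM of 12 interferon-stimulated genes in each of the 12 libraries, by group; marker shapes give the replicate, and black bars give the mean and SD of the group (n = 6, 3 and 3). For ADAR all 6 animals with pulmonary hypertension lie above low PAP, for ISG15 and MX1 PH-healthy replicate 2 (yellow square) lies with PH-failure, and IFI35 shows no separation.

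PH-failure and PH-healthy were compared directly as well. None of the 30 genes passed, higher or lower, where 0% of all tested genes were higher and 0.00879% lower, or 1 gene of 11374. At an unadjusted p under 0.05 there was 1 interferon-stimulated gene, ISG15, and 308 of all tested genes, and limma-voom on recovered reads also called none of the 30. ISG15 was higher in PH-failure by 0.76 ± 0.31, IFI6 by 0.72 ± 0.35, MX1 by 0.64 ± 0.33 and IFIT1 by 0.49 ± 0.25. All 4 had a limma adjusted p of 0.9995, and in none were the 3 PH-failure animals all above the 3 PH-healthy ones. The median over the 30 was 0.12, against 0.02 over all tested genes. ADAR, EIF2AK2, STAT2 and TRIM21 had differences from -0.03 to 0.01 with SEs of 0.16 to 0.19.

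The animals within a group differed in these genes together. PH-healthy replicate 2 was the highest of its 3 animals in 28 of the 30 genes, against 42.2% of all tested genes, and the highest of all 12 in 13, against 9.22% of all. It was above the mean of the 12 libraries in all 30. The median of its log2 values stood 0.51 above those means, where the median over all tested genes stood 0.11 above. The other PH-healthy animals were at -0.07 (replicate 1) and -0.05 (replicate 3) over the 30 genes, below their 0.09 and 0.03 over all genes.

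PH-failure replicate 2 was next, at 0.46 over the 30 genes against 0.06 over all, and held the highest value of the 12 in 9 genes. PH-failure replicates 3 and 1 stood at 0.23 and 0.16, against 0.16 and 0.10 over all genes. Of the low-PAP animals, replicate 1 alone was above the means, at 0.11 against -0.16 over all genes. Low-PAP replicates 3 and 4 were lowest, at -0.44 and -0.38, and each held the lowest value of the 12 in 11 genes. The median SD over the 30 genes was 0.31 on the log2 scale within PH-healthy, against 0.14 over all tested genes. Within low PAP it was 0.23 against 0.21, and within PH-failure 0.27 against 0.23.

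**Figure D3:**
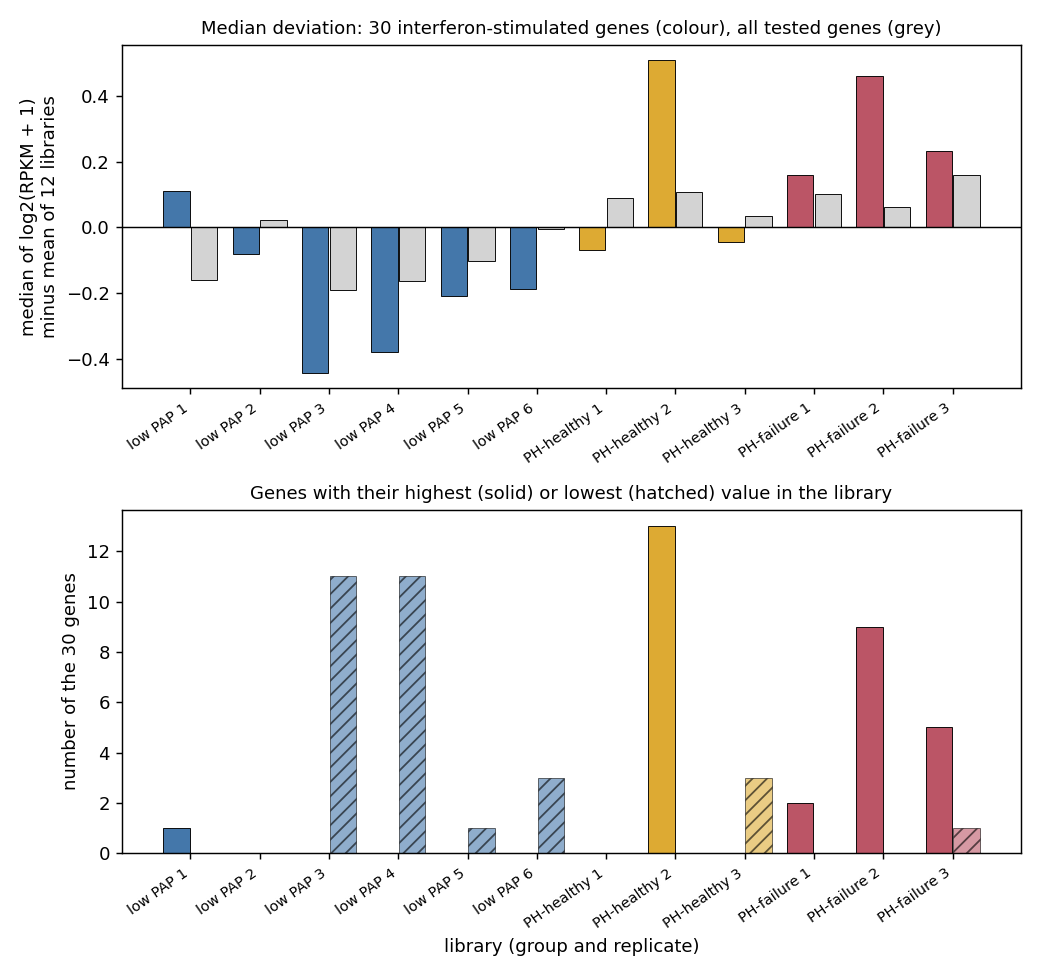
Upper panel, median over the 30 interferon-stimulated genes (coloured by group) and over all tested genes (grey) of log2(RPKM + 1) minus the mean of 12 libraries. Lower panel, number of the 30 genes with their highest (solid) or lowest (hatched) value in each library. PH-healthy replicate 2 holds 13 of the highest values, and low-PAP replicates 3 and 4 hold 11 of the lowest each.

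**Figure D4:**
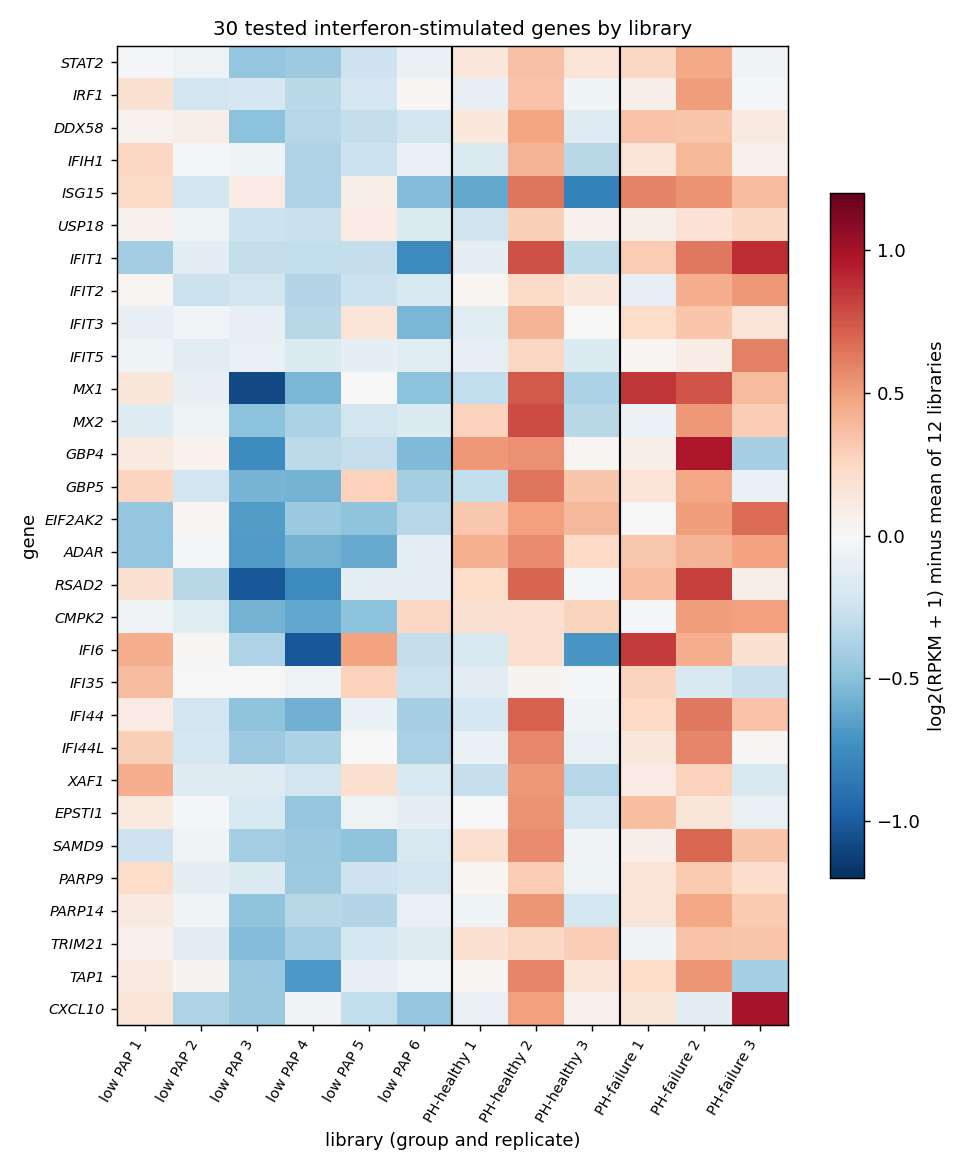
Log2(RPKM + 1) minus the mean of 12 libraries for each of the 30 tested interferon-stimulated genes (rows) in each library (columns), with lines between low PAP, PH-healthy and PH-failure. PH-healthy replicate 2 is above the mean in all 30 genes, whereas its group's replicates 1 and 3 are so in 14 and 11.

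Single animals weighed on the counts. Without PH-failure replicate 2 the number of genes that rose in PH-failure was 4 in place of 14, where 17.9% of all tested genes rose in place of 28%. Without PH-failure replicate 3 it was 6, beside 11.3% of all, and without low-PAP replicate 3 or 4 it was 7, beside 19.0% and 20.1%. In PH-healthy 2 genes, ADAR and EIF2AK2, rose without replicate 2, beside 16% of all tested genes, and the median of the 30 was 0.16 and that of all 0.15. Without PH-healthy replicate 1 the count was also 2, beside 13.3%. The libraries carry 2 series names, 55 and 56, each with 3 low-PAP animals. Within series 55, which held 1 PH-failure and 2 PH-healthy animals, 27 and 28 of the 30 genes were higher than in low PAP, with medians of 0.46 and 0.51. Over all tested genes the shares higher there were 67.4% and 64.9%, with medians of 0.24 and 0.16. Within series 56, with 2 PH-failure animals and 1 PH-healthy animal, 29 and 22 were higher, with medians of 0.45 and 0.08. All tested genes had shares of 70.7% and 67.1% and medians of 0.20 and 0.19 there, so the PH-healthy median in series 56 was below that of all genes.

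The authors' deposited table compares high with low PAP without splitting the high group. Its group means are not those of the 12 RPKM columns used here. For ADAR it gives 2.67 in low and 5.04 in high PAP. The columns gave means of 2.61 in low PAP, 5.31 in PH-healthy and 5.26 in PH-failure. Of the 32 genes in the authors' deposited table, 0 had a false discovery rate under 0.05 and 0 had a p under 0.05. The fold of the authors' deposited table was above 1 in 31 of them, with 2.48 for MX2 as the largest and 1.89 for ADAR, and IFI35 at -1.10 the sole one on the other side.

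Upstream of these genes, a part of the receptor and signalling genes rose. Of the interferons themselves little was measured, since IFNA matched no row by that symbol. IFNK, IFNE and IFNW1 were listed at 0 in all 12 libraries, as was PLSCR1, an interferon-stimulated gene of many tissues, so a listed 0 may be a failed estimate. IFNB1 and IFNG stayed below the filter. Of 10 tested genes for receptors, JAK kinases and STAT factors, 5 rose in PH-failure and 5 in PH-healthy and none fell, or 50% in each against 28% and 26.6% of all tested genes, with medians of 0.43 and 0.28 against 0.21 and 0.18 for all tested genes. IFNGR2, a chain of the interferon gamma receptor, went from 29.9 ± 3.38 RPKM (SD, n = 6) to 60.1 ± 10.6 in PH-healthy and 62.4 ± 9.01 in PH-failure (n = 3 each). Its log2 fold changes were 0.98 (limma adjusted p = 0.000681) and 1.03 (adjusted p = 0.000826). IFNAR1, a chain of the type I receptor, rose by 0.61 and 0.72 (limma adjusted p = 0.0410 and 0.0244). JAK2 and STAT3 also rose in both, and IFNAR2 in PH-failure. IFNGR1, IL10RB, JAK1 and TYK2 passed in neither. Under quantile normalization 2 of the 10 were called in PH-failure and 1 in PH-healthy. Of all 11374 tested genes, 1133 and 1424 were then called higher.

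A list for nucleic acid sensing and interferon induction held 14 tested genes. Of these, 9 rose in PH-failure (64.3%, against 28% of all tested genes) and 6 in PH-healthy (42.9%, against 26.6%), and none fell. The list is wider than sensors of nucleic acid. TLR4, MYD88, IRF2 and IRF5 are among the 9, while IRF3 and IRF8 did not pass. The counts include TRAF3, an adaptor of the sensors, which reached 1 RPKM in no low-PAP library. Without TRAF3 the counts were 8 and 5 of 13. TRIM25, the ubiquitin ligase that activates RIG-I, rose from 1.59 ± 0.321 RPKM to 3.70 ± 0.653 in PH-healthy and 4.49 ± 1.45 in PH-failure, by 0.86 and 1.06 (limma adjusted p = 0.00317 and 0.00164). RNF135, another ligase that acts on RIG-I, rose by 0.90 and 0.83, and TLR3, a sensor of double-stranded RNA in endosomes, by 0.64 and 0.70. MAVS, the mitochondrial adaptor of the RNA sensors, rose in PH-healthy alone of the 2 comparisons, by 0.78 (limma adjusted p = 0.0256), with 0.57 in PH-failure (adjusted p = 0.0796). Under quantile normalization 2 of the 14 were called in each comparison. Of all 11374 tested genes, 1133 in PH-failure and 1424 in PH-healthy were then called higher. Of 8 genes for negative feedback 2 rose in each comparison, a share of 25% that is below the 28% and 26.6% of all tested genes. They were PTPN11, a phosphatase with many targets, by 1.58 in PH-failure and 1.79 in PH-healthy, and PIAS1, an inhibitor of STAT signalling, by 0.68 and 0.54.

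A further list of interferon-stimulated genes outside the 35 held 33 tested genes, of which 18 rose in PH-failure and 11 in PH-healthy and none fell. The shares were 54.5% and 33.3%, against 28% and 26.6% of all tested genes, and the medians 0.50 and 0.37. Of these, 3 genes reached 1 RPKM in no low-PAP library, and of the other 30, 15 rose in PH-failure and 8 in PH-healthy, the latter a share of 26.7%. SHISA5 rose by 0.86 and 0.55, and LGALS3BP, a secreted glycoprotein, by 0.86 and 0.72. DTX3L, the ubiquitin ligase that works with PARP9, rose from 3.27 ± 0.720 RPKM in low PAP to 6.00 ± 0.917 in PH-healthy and 5.93 ± 1.03 in PH-failure. SERPING1, IFITM2 and LGALS9 rose in PH-failure, and their differences in PH-healthy were 0.01, -0.23 and 0.40. IFI27 and CXCL9, induced by interferon in many tissues, did not pass, with differences in PH-failure of -0.07 and -0.17. Under quantile normalization 7 of the 33 were called higher and 1 lower in PH-failure, and 2 higher in PH-healthy. Of all 11374 tested genes, that scaling called 1133 higher and 1418 lower in PH-failure, and 1424 higher in PH-healthy.

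Antigen presentation was mixed. Of 13 genes, TAPBP, TAP2, ERAP1 and NLRC5 rose in PH-failure, or 30.8%, near the 28% of all tested genes that rose. TAPBP, TAP2, NLRC5 and CIITA rose in PH-healthy, also 30.8%, against 26.6% of all tested genes. In PH-healthy PSME2, a proteasome activator subunit, fell by 0.37 (limma adjusted p = 0.0408), where 8.15% of all tested genes fell. The immunoproteasome subunits PSMB8, PSMB9 and PSMB10 did not pass, with differences of -0.09 to -0.23 in PH-failure. The median over the 13 was -0.02 in PH-failure and 0.04 in PH-healthy, below those of all tested genes. No gene of these further lists passed between PH-failure and PH-healthy, so a call in 1 of the 2 groups alone does not show that they differ.

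Markers of several cell types differed between the same groups. Of 13 tested macrophage and monocyte markers 9 rose in PH-failure, or 69.2% against 28% of all tested genes. In PH-healthy 3 rose, or 23.1%, below the 26.6% of all, and none fell in either. Under quantile normalization 2 of the 13 were called higher in PH-failure and 0 in PH-healthy. Of all 11374 tested genes, 1133 and 1424 were called higher under that scaling. CSF1R, the receptor for their growth factor, went from 3.77 ± 0.886 RPKM to 7.18 ± 2.60 in PH-healthy and 9.49 ± 2.06 in PH-failure, and CD14 from 2.29 ± 0.508 to 4.60 ± 1.48 and 6.42 ± 3.62. The summed level of the 14 listed markers was 58.4 to 91.4 RPKM in low PAP, 81.0 to 119 in PH-healthy and 79.9 to 217 in PH-failure, with none at 0 in all libraries. PH-healthy replicate 2 had the 119, the highest sum of its group, and PH-failure replicate 2 the 79.9, the lowest of its group. Of 9 tested T and NK cell markers, TRAC and LCK fell in PH-failure and TRAC in PH-healthy. Over all tested genes 5.79% and 8.15% fell. Under quantile normalization 4 of the 9 were called lower in PH-failure and 1 in PH-healthy, beside 1418 and 1622 of all tested genes. The 14 listed summed to 20.5 to 30.2 RPKM in low PAP, 13.8 to 22.9 in PH-healthy and 12.8 to 24.6 in PH-failure. The summed level of 7 dendritic cell markers was at most 5.96 RPKM in any library. Of 8 endothelial markers 4 rose in each comparison, or 50% against 28% and 26.6% of all tested genes, and none fell. The medians of the 8 were 0.56 in PH-failure and 0.48 in PH-healthy. They summed to 84.2 to 161 RPKM in low PAP, 145 to 163 in PH-healthy and 167 to 202 in PH-failure. VWF, the clotting factor carrier of vessel lining cells, rose most of the 8, by 2.04 in PH-failure and 1.68 in PH-healthy. EMCN and CLDN5 had negative differences, -0.37 and -0.55 in PH-failure and -0.32 and -0.73 in PH-healthy, and did not pass. Under quantile normalization 3 were called higher in PH-failure, and 2 higher and 1 lower in PH-healthy. Of 8 fibroblast markers 5 rose in PH-failure (62.5%) and 4 in PH-healthy (50%), and none fell. The medians of the 8 were 0.92 and 0.63. Their sums were 529 to 778 RPKM in low PAP, 590.2 to 993 in PH-healthy and 782 to 1184 in PH-failure. Under quantile normalization 4 of the 8 were called higher in each comparison. The part of these cells in the differences was not tested.

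The tissue label was checked against heart muscle. The 9 cardiomyocyte markers summed to 51683 to 90052 RPKM, so all libraries were rich in heart muscle RNA, with the lowest sum in PH-failure replicate 3. The same library stood apart in adipocyte markers (1573 RPKM, against 267 to 551 in the others), neutrophil markers (43.7, against 3.78 to 11.3) and red cell markers (70.0, against 1.80 to 9.30). Of the 9 cardiomyocyte markers 3 fell in PH-failure, where 5.79% of all tested genes fell. They were TNNI3, ACTC1 and PLN, at -0.57, -1.36 and -0.69. In PH-healthy TNNI3 and TNNC1 fell, at -0.52 and -0.51, and MYH7 rose, at 0.50. Under quantile normalization none of the 9 was called lower, and 1 was called higher in PH-healthy. Of all 11374 tested genes, 1418 in PH-failure and 1622 in PH-healthy were then called lower, and 1424 in PH-healthy higher. MYL7, an atrial myosin light chain, fell by 2.57 in PH-failure and by 2.85 in PH-healthy on the log2 scale, from 4812 ± 1525 RPKM in low PAP to 900 ± 596 and 652 ± 158. Of the other 4 tested atrial markers none fell, NR2F2 rose in PH-failure by 0.56, and the median of the 5 was 0.48 in PH-failure and 0.20 in PH-healthy. The part of these markers in the differences was not tested.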

How the data were processed

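Right ventricle RNA was extracted with Trizol and sequenced with Illumina libraries, per the labels' protocols. The authors deposited RPKM, per the file headers, for 24616 genes in 12 libraries, with their mean RPKM by pressure group, a signed fold score, a p-value and a false discovery rate. The sources used here do not name the aligner, the counting, the strand or the build. The 35 genes, their roles and all other lists were chosen with earlier results of these data known.

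A level of 1 RPKM or more in 3 or more libraries was required, which 11374 genes met. They were fitted with limma 3.58.1 (R 4.3.3, statmod 1.5.0) as log2(RPKM + 1), in 1 model of 3 groups with a robust variance trend, without covariates, and p was Benjamini-Hochberg adjusted over all of them (threshold 0.05). The fit was tested on simulated data. For an alternative, whole reads were recovered from the steps in RPKM: 100% of tested genes came out whole in every library within 0.05 reads, with a median of 370 reads. Older symbols came from a RefSeq gene table. Fold change, SE and adjusted p are given for genes called in a comparison and for those of smallest p; a few further values were added after they were seen. Tables were made with pandas 2.3.3 and numpy 2.4.6 and plots with matplotlib 3.10.9, in Python 3.11.15. Promoter sequences were not used here, and some genes of the further lists are not reported here.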

Additional observations from a re-analysis of the deposited data

How the results depend on the processing

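Against 14 interferon-stimulated genes higher in PH-failure and 5 in PH-healthy, quantile normalization gave 3 and 2, median-ratio scaling 5 and 2, a term for library series 12 and 6, no filter on low values 11 and 5, a pseudocount of 0.1 gave 14 and 5, and limma-voom on recovered reads, chosen after seeing the data, gave 15 and 6. Leaving out 1 library at a time gave 4 to 17 in PH-failure, 2 to 7 in PH-healthy, and 0 to 1 lower in PH-healthy, where the 1 is ISG15 without PH-healthy replicate 2. No other alternative called any of the genes lower, and none called any between PH-failure and PH-healthy. Calls that held throughout were ADAR and EIF2AK2 in both comparisons and IFIT1 in PH-failure. Under both scalings fewer of all genes were called higher too, 9.96% and 13.5% in PH-failure. In PH-healthy quantile normalization called 1424 of all 11374 tested genes higher, beside 2 of the 30. Except for the single libraries named above, shares of all genes under the remaining settings are not reported here. The counts under those settings are therefore not read as results about the list. A replicate block gave 5 in PH-failure and 2 in PH-healthy; over 9 pairs of same-numbered libraries the correlation of deviations ran from -0.26 to 0.19, and 2 of 18 matches were best with their own number, so the numbers did not pair the animals. The cause of these shifts was not tested. The planned count models were not run, since the deposited unit is not counts. With 3 animals per PH group and weakly expressed genes, small differences could not be resolved.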
